A study of Mus musculus with 12 samples.

Results

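The sciatic nerve bridge was compared, 14 days after nerve injury, between mice whose myelinating Schwann cells had lost Nf1 and control mice. Genes of mitosis, DNA replication, interstitial collagens and RAS-ERK feedback were higher in the mice that had lost Nf1. Myelin genes, perineurial junction genes and genes of lipid-laden macrophages were lower. Of 13 small leucine-rich proteoglycans of the matrix, 6 were lower and 1 was higher. These differences come from the 6 bridge libraries among the 12 libraries of the series, chosen by region: 3 from P0-CreERT2:YFPfl/fl:Nf1fl/fl mice, called Nf1 KO, and 3 from P0-CreERT2:YFPfl/fl:Nf1+/+ mice, called CTL. The other 6 libraries came from the distal stump of the same genotypes, 3 each, and serve here for comparison with the bridge. Animals of both genotypes carry the P0-CreERT2 transgene, a Cre recombinase that becomes active on tamoxifen and is driven by a promoter used in myelinating Schwann cells, and a floxed YFP reporter allele. Nf1 was deleted after tamoxifen in myelinating Schwann cells, so other cells of the nerve are not targeted. Each library was made from 6 fragments of 0.5 mm pooled from several mice, and neither the age or sex of the mice nor whether a mouse gave tissue to more than 1 pool is given in the sources used here. The p-values therefore measure the spread between these pools.

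Neurofibromin, the product of Nf1, speeds GTP hydrolysis by RAS and so returns RAS to its inactive form. Active RAS signals through RAF, MEK and ERK, and ERK induces its own brakes, among them the Sprouty, SPRED and dual-specificity phosphatase proteins. After a sciatic nerve is severed, new tissue called the bridge joins the stumps: macrophages, fibroblasts and new vessels fill it first, and dedifferentiated Schwann cells then migrate along the vessels and guide regrowing axons. The distal stump, in contrast, is old nerve in which axons and myelin degenerate. Schwann cells lacking NF1 are the cells from which neurofibromas grow, and the study's title puts its question as which signals of the injured surroundings favour or oppose tumours.

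The bridge libraries held 26124609, 33887873 and 32612435 counts in Nf1 KO and 18821445, 28559970 and 35871914 counts in CTL, so that 3 counts, the floor used here, are worth 0.0822 to 0.154 CPM, the count scaled to a common library size. Levels are CPM on TMM effective library sizes and are not divided by gene length. The defining genes of the tissue were present in every bridge library. Sox10, the Schwann cell transcription factor, had 69.7, 78.7 and 62.3 CPM in Nf1 KO and 81.6, 78.5 and 73.1 CPM in CTL (log2 fold change -0.15, adjusted p = 0.396). Nefl, a neurofilament made in neuronal cell bodies, stayed under 1.5 CPM in all 6 libraries. Tissue from around the nerve differed between libraries. The summed level of 16 skeletal muscle genes was 2515, 723.3 and 1712 CPM in Nf1 KO, against 14828, 2012 and 12984 CPM in CTL, so CTL bridge 1 and 3 carried the most muscle RNA while CTL bridge 2 lay within the range of Nf1 KO. The 7 erythroid genes summed to 1183, 1317 and 1042 CPM in Nf1 KO and to 3312, 1666 and 4605 CPM in CTL. The 12 neutrophil genes summed to 1308 CPM in Nf1 KO bridge 1 and to 88.4 to 244.7 CPM in the other 5 libraries. Muscle, erythroid and neutrophil lists each had 0 members called by edgeR. The part of muscle, blood or fat RNA in the results below was not tested, and for the main gene groups the value in CTL bridge 2, which held little muscle RNA, is pointed out.

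**Figure D1:**
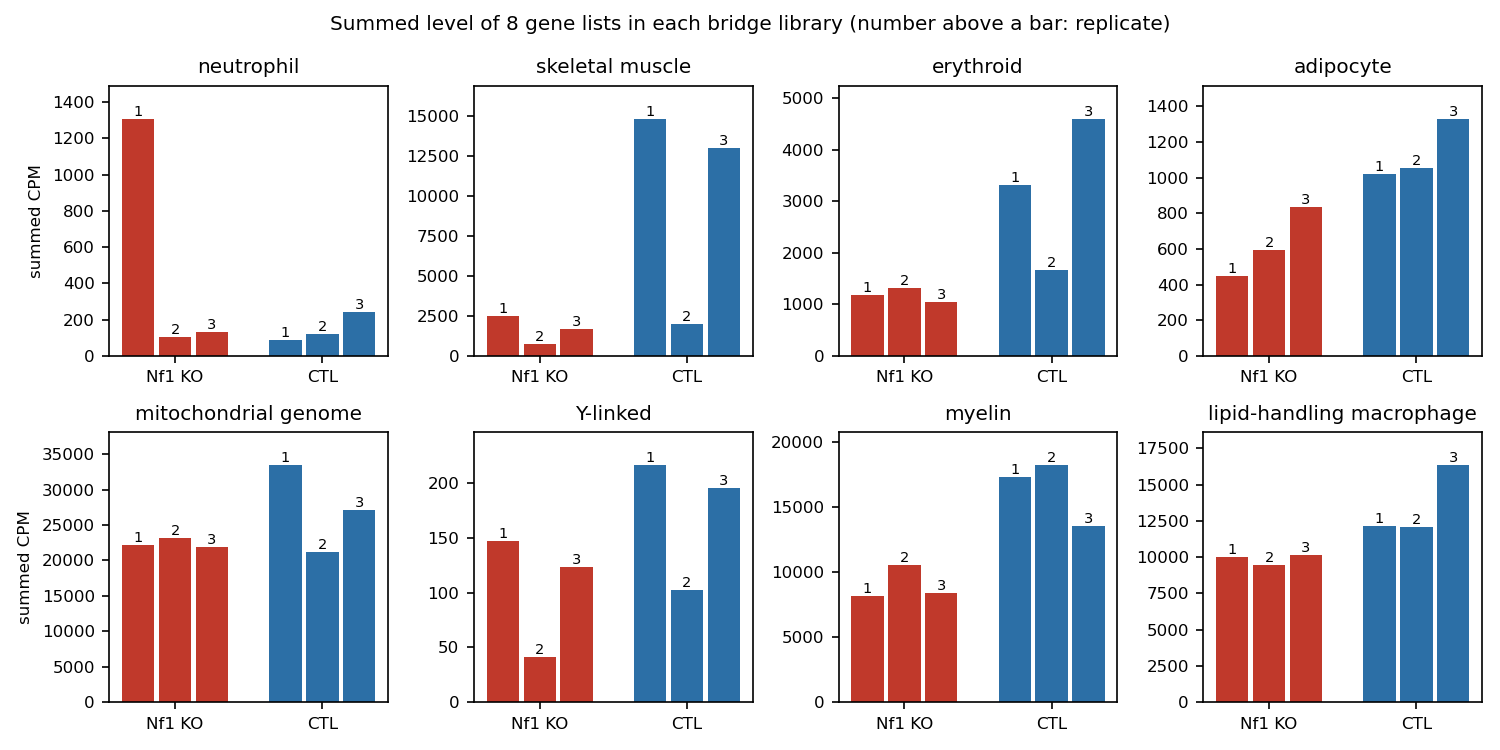
Summed CPM of 8 gene lists (vertical axes) in each bridge library, Nf1 KO in red and CTL in blue, with the replicate number above each bar. Muscle genes peaked in CTL bridge 1 and 3, neutrophil genes in Nf1 KO bridge 1, and the myelin list was lower in all 3 Nf1 KO libraries than in any CTL library.

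Nf1 itself fell in the Nf1 KO bridge. It lies at chr11:79339693-79581612 (GRCm38, plus strand) and had 42.4, 54.7 and 46.4 CPM in Nf1 KO, against 62.5, 67.4 and 60.1 CPM in CTL. The groups did not overlap, and the Nf1 KO mean of 47.9 ± 6.27 CPM was 75.6% of the CTL mean of 63.3 ± 3.76 CPM (SD, n = 3 each). The log2 fold change was -0.40 with a standard error (SE) of 0.099, and the adjusted p of edgeR's quasi-likelihood test was 0.0218. An exact 2-sided permutation test gave p = 0.1, the smallest that 3 against 3 libraries allow. The call was lost when Nf1 KO bridge 1 (adjusted p = 0.0802) or 3 (0.0697) or CTL bridge 1 (0.0566) or 2 (0.0758) was left out. The level includes transcripts of all cells that were not targeted, and in bulk tissue fewer cells of a type and less RNA per cell cannot be told apart, here or for any gene below.

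Across the transcriptome, 2795 of 19189 genes tested (14.6%) differed between Nf1 KO and CTL bridges at an adjusted p under 0.05. They comprised 1498 genes that rose (7.81%) and 1297 that fell (6.76%). These 2 shares are the background for every count of list members given below. The list members were chosen with earlier results of these data known, so such a count describes the list and is no test. Members of a list were read in the same 6 libraries and are not separate observations. The median absolute log2 fold change of the called genes was 0.51, and 418 of them changed at least 2-fold, 206 upward and 212 downward. The genes that rose summed to 114268 CPM in Nf1 KO and 80094 CPM in CTL, and those that fell summed to 77232 CPM in Nf1 KO and 113357 CPM in CTL. The calls depend on having all 6 libraries: leaving out CTL bridge 1 gave 1612 genes and leaving out Nf1 KO bridge 1 gave 1641, the lowest counts of the leave-one-out fits. With the muscle-rich CTL bridge 1 and 3 removed together, 711 genes were called, 648 of them among the 2795, and no called gene changed direction. A core of 1237 genes (6.45%), 691 higher and 546 lower, was called with every single library left out and with each other normalisation, filter and model used for naming. The genes named without further remark belong to that core, and a gene outside it is given with the library on which its call rests or as lost in several of these fits.

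The largest rises included genes that act outside the RAS pathway. Prkg2, the type II cGMP-dependent protein kinase, had 10.0, 9.20 and 11.3 CPM in Nf1 KO and 1.28, 0.917 and 1.205 CPM in CTL (log2 fold change 3.17, SE 0.15, adjusted p = 8.03e-06). From here on, a value in brackets after a gene is its log2 fold change of Nf1 KO over CTL, and adjusted p-values are edgeR's unless another tool is named. Add2, which encodes beta-adducin of the spectrin-actin skeleton, had 7.69, 7.39 and 8.72 CPM in Nf1 KO and 0.921, 1.38 and 0.904 CPM in CTL (2.89, SE 0.41). Ajap1, an adherens junction-associated membrane protein, had 9.86, 8.59 and 9.13 CPM in Nf1 KO and 1.02, 2.65 and 1.29 CPM in CTL (2.45, SE 0.32). All 3 were low in CTL. Their groups did not overlap, which was a condition for naming the largest changes. The groups were apart for 2774 of the 2795 called genes and for 34.4% of all genes tested. Such a gap, here or below, is therefore no separate support for a call. Crym, a cytosolic thyroid hormone-binding protein, followed with 56.0, 38.6 and 43.9 CPM in Nf1 KO and 12.2, 10.7 and 12.1 CPM in CTL (1.99, adjusted p = 4.5e-05). The largest falls included Inmt, a methyltransferase of indoleamines, with 4.10, 4.70 and 5.28 CPM in Nf1 KO and 25.6, 27.3 and 29.7 CPM in CTL (-2.55, adjusted p = 2.71e-05). Wnt10b, a secreted WNT ligand, had 0.916, 1.54 and 1.70 CPM in Nf1 KO and 4.09, 3.31 and 6.00 CPM in CTL (-1.68). For both, the absence of overlap was again a condition of naming. The other large rises and falls were Wfdc18 (1.91), Mcoln3 (-1.82), Cdrt4 (-1.64), Tmem45b (-1.63), Dusp26 (-1.63), Cmtm2b (-1.57) and Ifi202b (1.93). The reads of Ifi202b, an interferon-inducible gene, may be split with near-identical copies. Wfdc18 (chr11:83709015-83711348) and Cdrt4 (chr11:62951193-62993095) lie on the chromosome of Nf1. The part of DNA linked to the Nf1 allele in such changes was not tested. Tyrp1 (-1.99) and Mitf (-0.58), genes of pigment cells, fell as well, and the melanocyte list summed to 19.31, 22.38 and 21.07 CPM in Nf1 KO and 34.55, 36.23 and 37.38 CPM in CTL.

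Measured as CPM gained rather than as fold, secreted matrix proteins led the rise. Postn (periostin) gained the most, with 3478, 4214 and 4182 CPM in Nf1 KO and 1803, 1655 and 1874 CPM in CTL. Mgp, the matrix Gla protein that restrains calcification, had 1431, 1399 and 1436 CPM in Nf1 KO and 777, 716 and 722 CPM in CTL, and Igfbp4, a carrier of insulin-like growth factors, had 969, 842 and 894 CPM in Nf1 KO and 485, 489 and 541 CPM in CTL. The lowest Nf1 KO library stood above the highest CTL library by a wide margin in each case. In the other direction, Apod, the myelin genes Pmp22 (-0.81) and Mbp (-0.91), and Dcn were among those that lost the most. Igfbp6, another carrier of insulin-like growth factors, was also lower, with 845, 972 and 943 CPM in Nf1 KO and 1419, 1614 and 1328 CPM in CTL (-0.66, adjusted p = 0.00731).

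**Figure D2:**
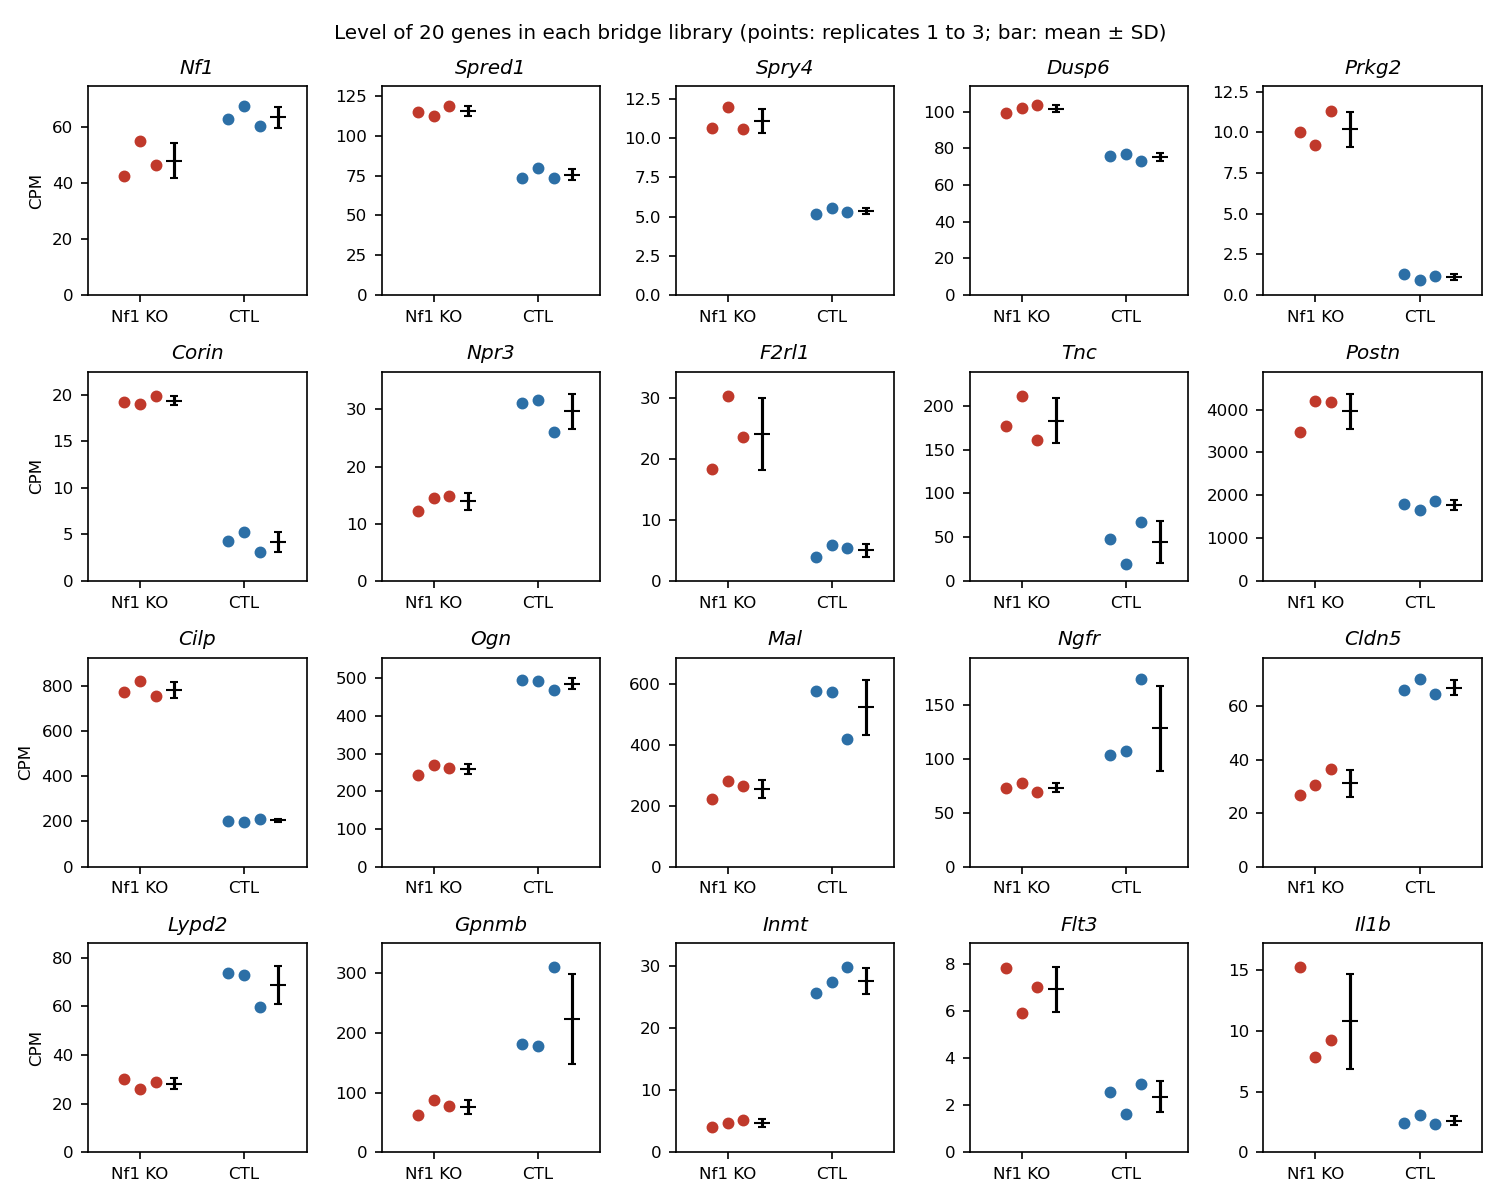
Level of 20 genes in CPM (vertical axes, from 0) in the 3 Nf1 KO (red) and 3 CTL (blue) bridge libraries, replicates 1 to 3 from left to right, with mean ± SD beside each group. The 20 genes were picked among called genes, of which 2774 of 2795 have groups that are apart, against 34.4% of all genes tested. The groups are apart in all 20 panels, and CTL bridge 3 stands above CTL bridge 1 and 2 for Ngfr and Gpnmb.

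The listed feedback inhibitors and transcriptional targets of RAS-ERK signalling included rises and no fall. Dusp26, a dual-specificity phosphatase that is not on the list, fell (-1.63). Of the 20 list genes tested, 9 rose and 0 fell, beside 7.81% and 6.76% of all genes. The median log2 fold change of the list was 0.30, against -0.0039 over all genes. Spred1, which recruits neurofibromin to the membrane, had 115, 112 and 119 CPM in Nf1 KO and 73.7, 79.5 and 73.3 CPM in CTL (0.61, SE 0.050, adjusted p = 0.000151). Spry4, a Sprouty inhibitor of receptor signalling to RAS, had 10.7, 11.9 and 10.6 CPM in Nf1 KO and 5.17, 5.57 and 5.28 CPM in CTL (1.05, SE 0.098). Dusp6, the cytoplasmic ERK phosphatase, had 99.3, 102 and 103 CPM in Nf1 KO and 75.8, 77.0 and 72.9 CPM in CTL (0.43, SE 0.071). For all 3 the CTL libraries lay close together, the muscle-poor CTL bridge 2 with the others, and well under the Nf1 KO libraries. Dusp5, the nuclear ERK phosphatase (0.78), Ier3 (0.90) and the ETS factors Etv1 (0.44) and Etv5 (0.43) also rose. Without CTL bridge 1 and 3, 2 members were called.

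The cascade itself did not move as a block. Of 26 core genes of the pathway, 3 rose and 6 fell, with a median of -0.0425. Rasgrp1, a calcium- and diacylglycerol-dependent activator of RAS, had 6.16, 5.82 and 5.55 CPM in Nf1 KO and 3.22, 2.72 and 2.79 CPM in CTL (1.01, adjusted p = 0.00583). The related small GTPase Mras (-0.45) and the adaptor Gab1 (-0.33) fell. The other 6 calls were lost in at least 1 leave-one-out fit, which left 1 to 3 rises and 2 to 6 falls: 1 rise without Nf1 KO bridge 1 or CTL bridge 1, and 3 falls without Nf1 KO bridge 1 or CTL bridge 3 and 2 without Nf1 KO bridge 3 or CTL bridge 1. Among 10 RAS GTPase-activating proteins Nf1 and Rasal2 fell, and Rasa1 had a log2 fold change of 0.27 whose call was lost in several of these fits. Rasal2 had 92.3, 110.5 and 101 CPM in Nf1 KO and 187, 189.5 and 144 CPM in CTL (-0.78, SE 0.11, adjusted p = 0.00148), a log2 fold change further from 0 than that of Nf1, though the difference between the 2 genes was not tested.

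Immediate early transcription factors, many of them induced by ERK, moved in both directions. Of 20 tested, 7 rose and 2 fell, with a median log2 fold change of 0.47. Ier2 had 37.7, 30.4 and 28.7 CPM in Nf1 KO and 15.5, 18.3 and 16.0 CPM in CTL (0.96, adjusted p = 0.00518). Egr1 averaged 19.3 ± 4.13 CPM in Nf1 KO and 9.45 ± 0.786 CPM in CTL (SD, n = 3 each), with a log2 fold change of 1.03 and an adjusted p of 0.0154 that was 0.0597 without Nf1 KO bridge 1 and 0.0553 without CTL bridge 1. Nr4a2, an orphan nuclear receptor, was lower, with 31.4, 26.8 and 30.7 CPM in Nf1 KO and 65.9, 70.8 and 44.7 CPM in CTL (-1.03). The number of rises was 4 without Nf1 KO bridge 1 or 2, 3 without CTL bridge 1 or 2, and 0 without CTL bridge 1 and 3 together.

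Genes of cGMP signalling changed around the natriuretic peptide system, in which a peptide activates a receptor that makes cGMP. Besides Prkg2, the most significant rise was Corin, a protease that activates the precursors of some natriuretic peptides. It had 19.2, 19.1 and 19.9 CPM in Nf1 KO and 4.25, 5.27 and 3.12 CPM in CTL (2.20, SE 0.16, adjusted p = 7.41e-05). Nppc, the C-type natriuretic peptide, was higher with 5.09, 6.49 and 5.37 CPM in Nf1 KO and 2.82, 4.13 and 2.98 CPM in CTL (0.77, adjusted p = 0.0175), a call lost without Nf1 KO bridge 2 (adjusted p = 0.063), CTL bridge 1 (0.0659) or CTL bridge 3 (0.0569). Npr3, the receptor that clears these peptides, fell to 12.3, 14.5 and 14.8 CPM in Nf1 KO, against 31.2, 31.7 and 26.1 CPM in CTL (-1.09, adjusted p = 0.000287). The type I kinase Prkg1 had 13.2, 13.1 and 14.9 CPM in Nf1 KO and 19.4, 16.2 and 23.4 CPM in CTL (-0.52), opposite in sign to Prkg2, and lost its call without Nf1 KO bridge 1 (adjusted p = 0.0641) or 2 (0.0615). Of the 13 genes of this list, 3 rose and 2 fell, beside 7.81% and 6.76% of all genes.

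Mitosis was the gene group with the most uniform rise. All 30 mitotic genes tested rose, against 7.81% of all genes, with a median log2 fold change of 0.84. Their summed level was 891.8, 825.7 and 920.4 CPM in Nf1 KO and 466.4, 480.6 and 542.6 CPM in CTL, so the muscle-poor CTL bridge 2 sat between the other CTL libraries. In 30 of 30 genes every Nf1 KO library lay above every CTL library, whereas the groups did not overlap, in either direction, for 34.4% of all genes. Kif23, a kinesin of the cytokinetic midzone, had 16.3, 15.6 and 16.3 CPM in Nf1 KO and 7.83, 8.45 and 8.41 CPM in CTL (0.97, SE 0.075, adjusted p = 0.000116). Ttk, the kinase MPS1 of the spindle checkpoint, had 9.42, 9.26 and 10.5 CPM in Nf1 KO and 4.50, 4.52 and 4.87 CPM in CTL (1.07, SE 0.10). Ccnb2, a mitotic B-type cyclin, had 34.9, 28.2 and 31.2 CPM in Nf1 KO and 13.5, 15.3 and 15.5 CPM in CTL (1.09, SE 0.11). The proliferation marker Mki67 rose alike (1.03), and the member with the lowest rise was Kif2c, a kinesin that shortens microtubules (0.54). Foxm1, the transcription factor of this programme (0.62, adjusted p = 0.0173), was the only member outside the core, with an adjusted p of 0.0613 without Nf1 KO bridge 2 and 0.0657 without CTL bridge 1. Without CTL bridge 1 and 3, 24 of the 30 were called.

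The promoters of these 3 genes, which are among the 4 of the list with the smallest p, are printed because mitotic genes are known to share short elements near their start: the CCAAT box bound by NF-Y, and the cell cycle homology element bound by the DREAM and MuvB-FOXM1 complexes. The sequences are from RefSeq (GRCm38.p6), run 5′ to 3′ on the gene's strand from 250 bases before to 50 bases after the start, and carry CCAAT and TTTGAA or TTTAAA in capitals, on either strand (ATTGG and TTCAAA on the other). Kif23 lies at chr9:61946750-61947049 on the minus strand, Ttk at chr9:83834439-83834738 on the plus strand and Ccnb2 at chr9:70421505-70421804 on the minus strand.
Kif23: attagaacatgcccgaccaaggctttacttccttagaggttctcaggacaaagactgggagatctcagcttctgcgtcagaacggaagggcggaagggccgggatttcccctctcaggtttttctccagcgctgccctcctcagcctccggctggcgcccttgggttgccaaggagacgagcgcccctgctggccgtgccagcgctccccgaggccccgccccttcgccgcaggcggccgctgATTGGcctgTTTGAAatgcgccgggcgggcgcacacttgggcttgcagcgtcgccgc
Ttk: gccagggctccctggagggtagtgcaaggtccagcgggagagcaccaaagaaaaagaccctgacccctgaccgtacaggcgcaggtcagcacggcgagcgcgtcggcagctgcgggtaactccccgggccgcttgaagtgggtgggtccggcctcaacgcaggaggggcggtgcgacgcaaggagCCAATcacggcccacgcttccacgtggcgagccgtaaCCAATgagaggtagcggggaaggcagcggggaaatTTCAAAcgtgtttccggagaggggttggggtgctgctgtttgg
Ccnb2: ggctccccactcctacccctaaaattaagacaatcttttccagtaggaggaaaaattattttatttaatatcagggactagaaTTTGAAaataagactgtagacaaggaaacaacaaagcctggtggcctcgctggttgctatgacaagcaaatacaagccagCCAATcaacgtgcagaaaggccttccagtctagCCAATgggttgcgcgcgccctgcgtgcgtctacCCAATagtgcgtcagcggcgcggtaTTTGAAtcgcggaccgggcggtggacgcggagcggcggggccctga
Each of the 3 holds a CCAAT within 100 bases before the start and a TTTGAA, on either strand, close to the start itself. A CCAAT was found in 18 of the 24 mitosis genes with a promoter in the table (75%), against 37.9% of all 27025 promoters, and TTTGAA or TTTAAA in 21 (87.5%), against 27.8%. Both were present in 17 mitosis promoters (70.8%), against 10.9% of all. Among 26 DNA replication genes, 18 (69.2%) held a CCAAT and 9 (34.6%) a TTTGAA or TTTAAA. A match describes the letters in this window and shows no binding.

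DNA replication genes had a smaller median change than mitotic genes. Of 33 tested, 24 rose and 0 fell, with a median of 0.54, and their summed level was 802.3, 774.8 and 866.6 CPM in Nf1 KO and 578.1, 591.1 and 631.4 CPM in CTL. Rrm2, the regulatory subunit of ribonucleotide reductase, had 28.1, 25.2 and 28.4 CPM in Nf1 KO and 13.3, 14.1 and 15.9 CPM in CTL (0.92, SE 0.074, adjusted p = 0.000151). Ccne1, the cyclin of S phase entry, had 11.1, 10.5 and 12.0 CPM in Nf1 KO and 5.99, 4.32 and 5.81 CPM in CTL (1.06, SE 0.14). Subunits of the MCM helicase such as Mcm5 (0.82) and Mcm2 (0.84) rose, and the clamp gene Pcna had 149.8, 148 and 169.9 CPM in Nf1 KO and 126, 126 and 138 CPM in CTL without being called (adjusted p = 0.0669). Without CTL bridge 1 and 3, 9 were called. Of the cyclin D genes and partners, Ccnd2 (0.51) and Cdk6 (0.56) rose, while the calls of Ccnd3 and Cdk4 were lost in several fits. Of 17 cell cycle inhibitors and tumour suppressors 3 rose and 1 fell, beside 7.81% and 6.76% of all genes, with a median of 0.052. Cdkn2a, which encodes p16 and ARF, had 31.3, 23.7 and 26.0 CPM in Nf1 KO and 17.2, 13.8 and 15.7 CPM in CTL (0.79, adjusted p = 0.00993). Cdkn2b (0.52) lost its call without Nf1 KO bridge 3 (adjusted p = 0.0525) or CTL bridge 1 (0.0621), and Rbl1 (0.30) lost it in several fits. The fall was that of Cdkn1b, which encodes p27, with 83.4, 84.0 and 83.5 CPM in Nf1 KO and 122, 127 and 93.4 CPM in CTL (-0.45). The call of Cdkn1b was lost without Nf1 KO bridge 1 (adjusted p = 0.0529), CTL bridge 1 (0.0623) or CTL bridge 2 (0.0585).

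**Figure D3:**
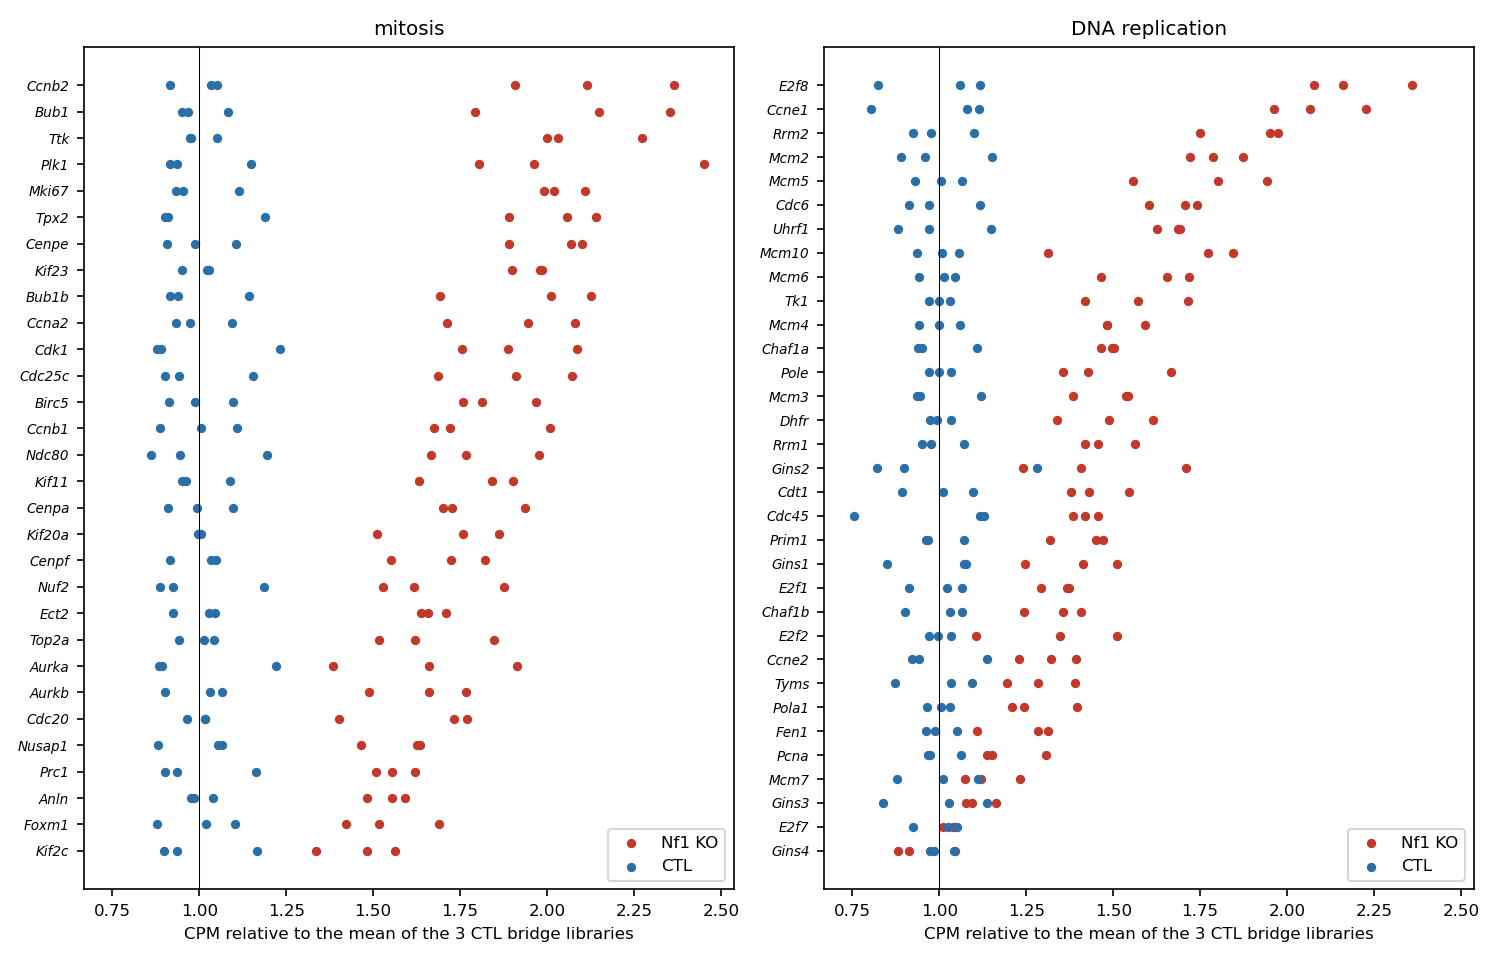
CPM relative to the mean of the 3 CTL bridge libraries (horizontal axis) for each mitosis gene (left) and DNA replication gene (right), with Nf1 KO libraries in red and CTL libraries in blue. Red and blue points are apart for all 30 mitosis genes, and overlap towards the bottom of the DNA replication panel.

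Myelin genes fell while most lineage markers of Schwann cells were not called. Of 21 myelin genes, 17 fell and 0 rose, against 6.76% of all genes, with a median log2 fold change of -0.85. Mal, a proteolipid of myelin membranes, had 223, 282 and 265 CPM in Nf1 KO and 579, 576 and 420.5 CPM in CTL (-1.03, SE 0.18, adjusted p = 0.00417). Cldn19, the claudin of Schwann cell tight junctions, had 132, 163 and 132 CPM in Nf1 KO and 315, 299 and 231 CPM in CTL (-0.98, SE 0.13). Drp2, a partner of periaxin at the outer myelin surface, had 56.5, 83.3 and 72.1 CPM in Nf1 KO and 162, 182 and 127 CPM in CTL (-1.15, SE 0.22). No Nf1 KO library reached the lowest CTL library for these genes, and CTL bridge 3 was the lowest of the CTL libraries for all 3. The summed myelin list was 8173, 10563 and 8393 CPM in Nf1 KO and 17371, 18247 and 13535 CPM in CTL. Without CTL bridge 1 and 3, 13 of the 21 were called.

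Of 13 lineage genes 1 rose and 3 fell, among them Itga6, a laminin receptor subunit (-0.39). Fabp7, a fatty acid-binding protein of immature glia, had 14.4, 8.90 and 12.3 CPM in Nf1 KO and 4.04, 5.14 and 6.00 CPM in CTL (1.22), a call lost without Nf1 KO bridge 1 (adjusted p = 0.0747) or 3 (0.0548) or CTL bridge 1 (0.0758) or 2 (0.0578). Sox10, Erbb3 and S100b were not called, with log2 fold changes of -0.15, -0.10 and -0.26. The repair programme that denervated Schwann cells switch on was split, with 4 of 19 genes higher and 3 lower. Ncam1, an adhesion molecule of non-myelinating and repair cells, had 71.2, 69.2 and 65.9 CPM in Nf1 KO and 47.7, 39.2 and 40.3 CPM in CTL (0.70, adjusted p = 0.00206), and Hmga2, a chromatin protein of growing tissue, was also higher (1.04). Olig1, a glial transcription factor of repair cells, had 1.28, 1.09 and 1.31 CPM in Nf1 KO and 4.50, 3.47 and 14.0 CPM in CTL (-2.59, adjusted p = 0.00543). Ngfr, the p75 neurotrophin receptor, had 73.0, 77.9 and 69.7 CPM in Nf1 KO and 104, 108 and 174 CPM in CTL (-0.81), with its call lost without Nf1 KO bridge 1 (adjusted p = 0.0557) or 3 (0.0564). CTL bridge 3 stood far above the other CTL libraries for both Olig1 and Ngfr. The rises numbered 2 without Nf1 KO bridge 1 or 2 or CTL bridge 1, and the falls 1 without Nf1 KO bridge 1 or 3. Cholesterol synthesis, on which myelin depends, had 5 of 19 genes called lower, and that count ranged from 0 without Nf1 KO bridge 1, CTL bridge 1 or CTL bridge 2 to 9 without CTL bridge 3.

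Fibrillar and associated collagens rose together. Of 21 interstitial collagen genes, 13 rose and 0 fell, with a median log2 fold change of 0.49, and their sum was 21152, 21024 and 20275 CPM in Nf1 KO and 15313, 16253 and 16035 CPM in CTL. Col12a1, which decorates collagen I fibrils under tension, had 138, 145 and 132 CPM in Nf1 KO and 54.3, 62.3 and 55.7 CPM in CTL (1.27, SE 0.13, adjusted p = 0.00043). Col8a1, a short-chain network collagen, had 265, 238 and 262 CPM in Nf1 KO and 105, 117 and 127 CPM in CTL (1.13, SE 0.092). Col1a1 of the main fibril had 2975, 2719 and 2276 CPM in Nf1 KO and 1483, 1647 and 1538 CPM in CTL (0.77, SE 0.10). The CTL libraries, with and without much muscle RNA, lay together for all 3 genes. Col1a2 had 0.43, with the call lost without Nf1 KO bridge 1 (adjusted p = 0.0906), CTL bridge 1 (0.0864) or CTL bridge 3 (0.0578). Without CTL bridge 1 and 3, 4 collagens were called.

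Glycoproteins that cells deposit during wound repair rose with the collagens, 9 of 19 higher and 2 lower, with 5 higher without CTL bridge 1 and 3 and neither fall in the core. Tnc, the anti-adhesive glycoprotein tenascin-C, had 177, 211 and 161 CPM in Nf1 KO and 47.6, 19.6 and 67.1 CPM in CTL (2.03, SE 0.39, adjusted p = 0.00722). Its CTL values were scattered, with the lowest in CTL bridge 2, but all lay under the Nf1 KO range. Vcan (versican, a large hyaluronan-binding proteoglycan) had 187, 181 and 203 CPM in Nf1 KO and 78.0, 82.5 and 88.9 CPM in CTL (1.19), and Fn1 (fibronectin) also rose (0.61). Cilp, a matrix protein of cartilage that binds TGF-beta1, had 773, 823 and 754 CPM in Nf1 KO and 203, 199 and 212 CPM in CTL (1.94, adjusted p = 0.00422).

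The small leucine-rich proteoglycans, which sit on collagen fibrils and set their spacing, moved the other way. Of 13, 6 fell and 1 rose, and 2 fell without CTL bridge 1 and 3. Ogn (osteoglycin) had 244, 269 and 262 CPM in Nf1 KO and 494, 493 and 469.7 CPM in CTL (-0.91, SE 0.081, adjusted p = 0.000224). Dcn (decorin) had 3055, 3256 and 3472 CPM in Nf1 KO and 4234, 4290.5 and 4133 CPM in CTL (-0.37, SE 0.069). Bgn (biglycan), the closest relative of decorin, was the exception with 482, 465 and 443 CPM in Nf1 KO and 254, 228 and 275 CPM in CTL (0.88, SE 0.10). The groups were apart for all 3, with Bgn and Dcn on opposite sides.

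Enzymes that fold, modify and cross-link collagen were called in 13 of 23 cases, all higher, yet that count was 5 to 7 when any library other than CTL bridge 3 was left out and 0 without CTL bridge 1 and 3. Those in the core include the lysyl oxidase Loxl1, with 86.0, 86.6 and 81.6 CPM in Nf1 KO and 44.2, 43.2 and 47.9 CPM in CTL (0.91, adjusted p = 0.00285), the lysyl hydroxylase Plod2 (0.60) and the chaperone Fkbp10 (0.65). Basement membrane genes split by chain: of 21, 5 rose and 3 fell. Col18a1, the source of endostatin, had 433, 437 and 414 CPM in Nf1 KO and 199.8, 227 and 249 CPM in CTL (0.93, adjusted p = 0.000456). The common collagen IV chains Col4a1 (0.46) and Col4a2 (0.51) rose, while the restricted chains Col4a4 (-0.88) and Col4a5 (-0.61) fell. Without CTL bridge 1 and 3, 1 basement membrane gene was called higher and 0 lower.

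Proteases, their inhibitors and thrombin-family receptors gave 12 rises and 2 falls among 31 genes, and 4 rises without CTL bridge 1 and 3. F2rl1, the protease-activated receptor PAR2, had 18.4, 30.3 and 23.5 CPM in Nf1 KO and 3.84, 5.93 and 5.37 CPM in CTL (2.25, SE 0.40, adjusted p = 0.0054). F2r, the thrombin receptor PAR1, had 27.2, 30.2 and 27.7 CPM in Nf1 KO and 12.5, 11.5 and 12.6 CPM in CTL (1.22, SE 0.16). Timp1, an inhibitor of metalloproteinases, had 121, 134 and 130.2 CPM in Nf1 KO and 44.9, 49.4 and 74.2 CPM in CTL (1.19, SE 0.20). In none of the 3 did a CTL library reach the lowest Nf1 KO library. Mmp14, the membrane-bound collagenase, also rose (0.63). Adamts5, an aggrecanase, fell (-0.57).

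Several genes that TGF-beta induces were higher. Of 26 genes of the pathway, 7 rose and 3 fell, beside 7.81% and 6.76% of all genes. Skil, the feedback repressor SnoN, had 67.7, 71.0 and 72.1 CPM in Nf1 KO and 38.1, 37.6 and 38.3 CPM in CTL (0.89, SE 0.049, adjusted p = 2.71e-05). Pmepa1, an inhibitor of receptor-activated SMADs, had 62.4, 69.2 and 54.0 CPM in Nf1 KO and 30.6, 30.7 and 28.9 CPM in CTL (1.04, SE 0.093). Tgfb1, a ligand (0.72), Inhba, the activin A subunit (0.85), and Tgfbr2, the type II receptor (0.47), rose, and the co-receptor Tgfbr3 fell (-0.45). The falls numbered 1 without any 1 Nf1 KO library or CTL bridge 2, and without CTL bridge 1 and 3 together 4 rises and 1 fall were called. Of 12 YAP and TAZ targets and partners, 3 rose and 1 fell, and the median of the list was 0.03. The rises were led by Ctgf with 50.7, 92.2 and 57.2 CPM in Nf1 KO and 20.01, 17.4 and 27.4 CPM in CTL (1.63, adjusted p = 0.00314) and Cyr61 (0.74), both secreted matricellular proteins, and the fall was that of Tead4, a DNA-binding partner of YAP, with 2.49, 3.64 and 2.33 CPM in Nf1 KO and 4.30, 4.75 and 4.98 CPM in CTL (-0.73, adjusted p = 0.0312). The call of Tead4 was lost when any 1 library other than Nf1 KO bridge 2 was left out, with adjusted p from 0.0589 to 0.11.

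Growth factors had no common direction. Of 29, 7 rose and 3 fell, beside 7.81% and 6.76% of all genes, and 4 rose without Nf1 KO bridge 1, CTL bridge 1 or CTL bridge 2. Igf1 had 318, 304 and 329 CPM in Nf1 KO and 172, 166 and 194 CPM in CTL (0.84, SE 0.079, adjusted p = 0.000287). Pdgfb, the platelet-derived factor for mural cells and fibroblasts (0.51), Mdk, the heparin-binding factor midkine (0.61), and Hbegf, a ligand of the EGF receptor (0.71), rose. Tgfa, another ligand of that receptor, fell with 5.53, 5.54 and 5.58 CPM in Nf1 KO and 11.1, 12.3 and 9.94 CPM in CTL (-1.001). Il34, a ligand of the macrophage receptor CSF1R (-0.47), and Fgf7 (-0.45) also fell. Of 24 receptor tyrosine kinases 2 rose and 3 fell, beside 7.81% and 6.76% of all genes. Met, the receptor of hepatocyte growth factor, was the only one in the core (12.97, 13.3 and 13.8 CPM in Nf1 KO and 21.8, 20.6 and 36.1 CPM in CTL, -0.97). Leaving out Nf1 KO bridge 1 or 3 or CTL bridge 1 or 2 left 1 fall.

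Axon guidance molecules were called in both directions, 6 higher and 8 lower of 29. Robo1, a receptor of SLIT proteins, had 6.38, 6.32 and 6.30 CPM in Nf1 KO and 2.82, 3.14 and 2.88 CPM in CTL (1.10, SE 0.13, adjusted p = 0.000817), while its ligand Slit2 was lower (-0.29). Sema3b, a secreted repellent, had 184, 224 and 211 CPM in Nf1 KO and 377, 372 and 322 CPM in CTL (-0.79, SE 0.13). Efnb2 (0.56) and the ephrin receptor Ephb2 (0.41) rose. The rises numbered 3 without CTL bridge 1, and the falls 5 without Nf1 KO bridge 1 or CTL bridge 2 and 4 without Nf1 KO bridge 3. Of the 23 genes tested in the WNT and Hedgehog list, 2 rose and 4 fell, none of them in the core. The falls numbered 2 without any 1 Nf1 KO library or CTL bridge 1 and 1 without CTL bridge 2. Wnt10b, whose fall is given above and belongs to the core, is not a member of that list.

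Perineurial genes fell almost as a group. The perineurium is the sheath of flat, tightly joined cells around nerve fascicles, and of 12 of its genes 10 fell and 0 rose, with a median log2 fold change of -0.71. Lypd2, a small GPI-anchored protein, had 30.2, 25.9 and 28.8 CPM in Nf1 KO and 73.8, 72.9 and 59.6 CPM in CTL (-1.28, SE 0.12, adjusted p = 0.000287). Perp, a desmosomal protein, had 9.71, 11.7 and 11.3 CPM in Nf1 KO and 22.8, 25.9 and 20.3 CPM in CTL (-1.08, SE 0.11). Slc2a1, the glucose transporter GLUT1 of this barrier, had 68.3, 77.2 and 72.9 CPM in Nf1 KO and 115, 130.2 and 130.1 CPM in CTL (-0.78, SE 0.12). In each of these genes the 3 Nf1 KO libraries lay under the 3 CTL libraries, CTL bridge 2 included. The junction genes Ocln (-0.64) and Tjp1 (-0.41) fell too. The 10 calls held with each library left out, and 8 were made without CTL bridge 1 and 3. Msln (-1.01) and Krt19 (-1.03), which are members of the list, also mark mesothelial and epithelial cells.

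Fibroblast and vessel markers showed no common direction. Of 22 nerve fibroblast genes 2 rose and 5 fell: Thy1, a surface glycoprotein, had 83.8, 111 and 90.9 CPM in Nf1 KO and 46.2, 42.4 and 63.0 CPM in CTL (0.91), whereas Gsn, the actin-severing gelsolin, had 1245, 1362 and 1485 CPM in Nf1 KO and 1975, 2016 and 1929.7 CPM in CTL (-0.53) and Pcolce2, a procollagen enhancer, also fell (-1.31). The falls numbered 3 without Nf1 KO bridge 1, CTL bridge 1 or CTL bridge 3. Pdgfra, the general fibroblast receptor, had 105, 95.6 and 106 CPM in Nf1 KO and 93.8, 104 and 103 CPM in CTL and was not called. Apod, an apolipoprotein of endoneurial fibroblasts, had 3676, 4536 and 4341 CPM in Nf1 KO and 5991, 6127 and 9211 CPM in CTL (-0.76), and lost its call without Nf1 KO bridge 1 (adjusted p = 0.0652). Of 18 endothelial genes 1 was called. It was Cldn5, the tight junction claudin of vessels, with 26.6, 30.4 and 36.4 CPM in Nf1 KO and 66.0, 70.1 and 64.7 CPM in CTL (-1.10, SE 0.14, adjusted p = 0.00103). Pecam1 had 84.1, 85.0 and 89.9 CPM in Nf1 KO and 87.1, 82.8 and 102 CPM in CTL, without a call (log2 fold change -0.07).

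**Figure D4:**
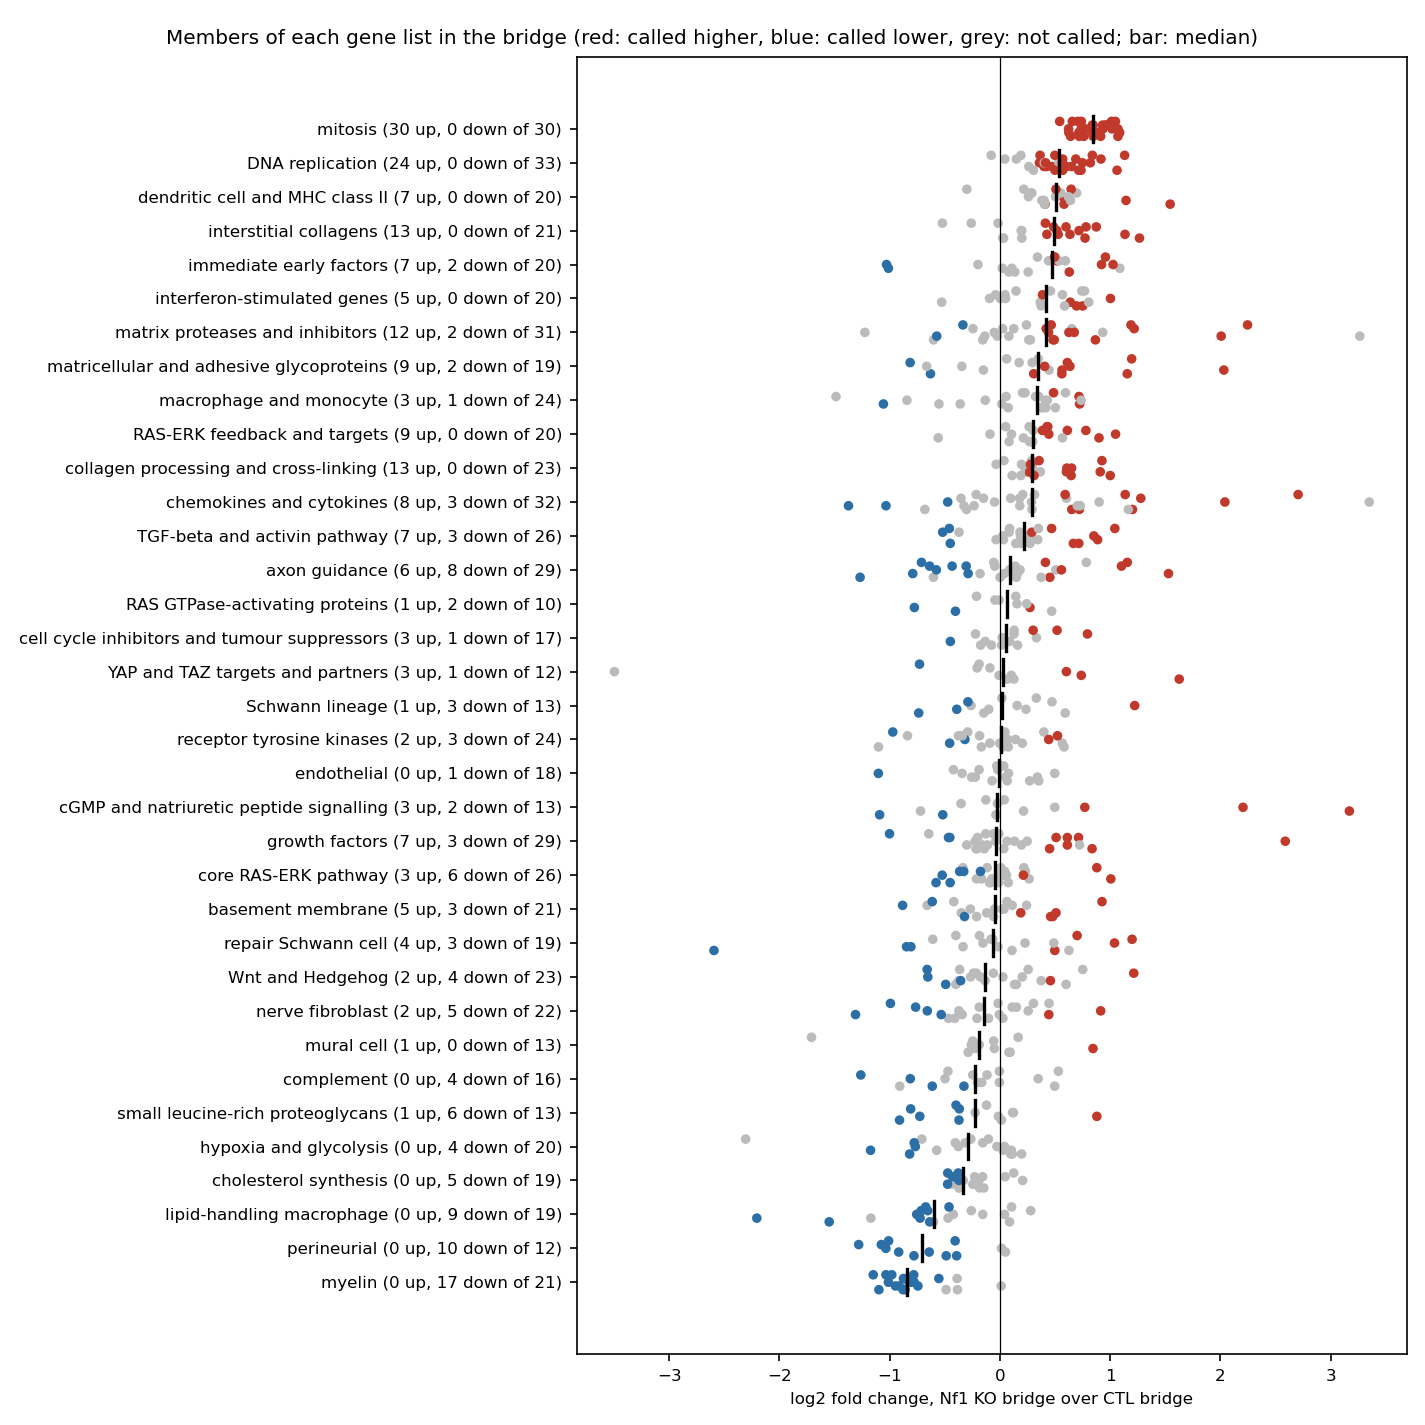
Log2 fold change of Nf1 KO over CTL in the bridge (horizontal axis) for each tested gene of the lists described here, with genes called higher in red, called lower in blue, not called in grey and the list median as a bar. The mitosis list lies wholly to the right of 0, and the myelin and perineurial lists lie mostly to the left.

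General macrophage genes such as Adgre1 (172, 136 and 128 CPM in Nf1 KO, 109, 98.3 and 119 CPM in CTL) and Csf1r (208, 154 and 166 CPM in Nf1 KO, 127, 128 and 142 CPM in CTL) had higher values in Nf1 KO but were not called. Of 24 macrophage and monocyte genes 3 rose and 1 fell, beside 7.81% and 6.76% of all genes. The median log2 fold change of the list was 0.337. Ccr2, the chemokine receptor of inflammatory monocytes, had 163, 110.2 and 160.3 CPM in Nf1 KO and 87.3, 82.8 and 92.6 CPM in CTL (0.72, adjusted p = 0.00914), while Lgals3 (galectin-3) had 151, 172 and 169.95 CPM in Nf1 KO and 331, 284 and 412 CPM in CTL (-1.06, adjusted p = 0.00941). The rises numbered 1 without Nf1 KO bridge 1, CTL bridge 1 or CTL bridge 2 and 5 without Nf1 KO bridge 2.

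Genes by which macrophages take up and handle lipid and myelin debris were lower, 9 of 19 with 0 higher and a median of -0.60. Gpnmb, a lysosomal membrane glycoprotein of foamy macrophages, had 63.4, 87.5 and 78.1 CPM in Nf1 KO and 181, 178 and 311 CPM in CTL (-1.55, SE 0.25, adjusted p = 0.00327). Atp6v0d2, a subunit of the lysosomal proton pump, had 6.16, 9.54 and 9.31 CPM in Nf1 KO and 28.3, 28.9 and 58.2 CPM in CTL (-2.21, SE 0.31). CTL bridge 3 was the highest for both, yet CTL bridge 1 and 2 also stood well above all Nf1 KO libraries. The cholesterol exporter Abca1 (-0.67) and its activator Nr1h3, the receptor LXR-alpha (-0.46), fell. Without Nf1 KO bridge 1 the count was 5, and without CTL bridge 1 and 3 it was 3. Lpl (-0.71) and Fabp4 (-0.72, a call lost without Nf1 KO bridge 1 or 2 or CTL bridge 1 or 3 at adjusted p of 0.102, 0.0936, 0.0522 and 0.0875) are shared with fat. The adipocyte list summed to 447.7, 592.5 and 833.3 CPM in Nf1 KO and 1017, 1056 and 1330 CPM in CTL. That list had 10 of 12 genes called lower, and the count was 3 without Nf1 KO bridge 1, 2 without Nf1 KO bridge 2, 6 without CTL bridge 1 and 4 without CTL bridge 3. The part of fat in the fall of these lipid genes was not tested.

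Dendritic cell genes were higher. Of 20 genes of dendritic cells and MHC class II, 7 rose and 0 fell, beside 7.81% and 6.76% of all genes, with a median of 0.51. Flt3, the growth factor receptor of dendritic cell precursors, had 7.84, 5.93 and 7.04 CPM in Nf1 KO and 2.56, 1.64 and 2.93 CPM in CTL (1.54, SE 0.20, adjusted p = 0.00122). Cd209a, a lectin of monocyte-derived and conventional dendritic cells, had 29.0, 24.4 and 28.4 CPM in Nf1 KO and 11.5, 9.60 and 15.8 CPM in CTL (1.14, SE 0.18). Clec9a, which marks cross-presenting dendritic cells, rose less (0.57). The 3 Nf1 KO libraries exceeded the 3 CTL libraries for these genes. The count was 3 without Nf1 KO bridge 1, 4 without Nf1 KO bridge 3, CTL bridge 2 or CTL bridge 3, and 2 without CTL bridge 1 and 3, and DESeq2 called 11.

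Of 32 chemokines and cytokines 8 rose and 3 fell, beside 7.81% and 6.76% of all genes. Il1b had 15.2, 7.86 and 9.19 CPM in Nf1 KO and 2.41, 3.05 and 2.35 CPM in CTL (2.04, SE 0.42, adjusted p = 0.0102), and its highest value was in Nf1 KO bridge 1, the library with the most neutrophil RNA. Cxcl14, a chemokine made by fibroblasts, had 164, 142 and 154 CPM in Nf1 KO and 62.9, 59.2 and 67.6 CPM in CTL (1.28, SE 0.099). Il33, an alarmin of stromal nuclei, had 106, 105 and 119.99 CPM in Nf1 KO and 75.4, 70.9 and 73.4 CPM in CTL (0.59, SE 0.061). The rises numbered 4 without Nf1 KO bridge 1 or CTL bridge 2 and 5 without Nf1 KO bridge 3, and the falls 1 without any 1 Nf1 KO library or CTL bridge 3 and 0 without CTL bridge 1. Of 20 interferon-stimulated genes 5 rose, among them Isg15 (0.75) and Oas2 (1.003), and 2 were called with any library other than Nf1 KO bridge 2 left out. Of 16 complement genes 4 fell and 0 rose, led by C2, an enzyme of the classical pathway, with 89.2, 89.8 and 84.9 CPM in Nf1 KO and 148, 151 and 165 CPM in CTL (-0.81, adjusted p = 0.000443).

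Of 20 genes of glycolysis and hypoxia, 4 fell and 0 rose, and 2 of the falls belonged to the core. Ndrg1, a hypoxia-induced protein that Schwann cells need for stable myelin, had 241, 325 and 273 CPM in Nf1 KO and 486, 521 and 432 CPM in CTL (-0.78, adjusted p = 0.00437), highest in CTL bridge 2, the muscle-poor control. Bnip3, a mitophagy receptor, had 24.4, 28.4 and 35.1 CPM in Nf1 KO and 59.6, 44.7 and 51.1 CPM in CTL (-0.82). In both, every Nf1 KO library lay under every CTL library. Aldoa, a glycolytic enzyme abundant in muscle, had 656, 499.6 and 618 CPM in Nf1 KO and 1797, 700.02 and 1504 CPM in CTL (-1.17, adjusted p = 0.0256), with CTL bridge 2 much nearer to Nf1 KO than the other CTL libraries. The call of Aldoa was lost in 5 of 6 leave-one-out fits. The count of the list was 2 without any 1 of the Nf1 KO libraries, CTL bridge 1 or CTL bridge 3, and 9 without CTL bridge 2. Slc2a4, the glucose transporter GLUT4 of muscle and fat, had 5.24, 3.92 and 8.27 CPM in Nf1 KO and 23.6, 10.9 and 17.96 CPM in CTL (-1.59), highest in CTL bridge 1 and 3.

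The bridge was then set against the distal stump. In the distal stump 1562 of 19189 genes (8.14%) differed between the genotypes. The test of the difference between the regions, the interaction of genotype and region, called 0 genes with edgeR, while 2534 genes (13.2%) had an unadjusted p under 0.05 and DESeq2 called 418 of 15766 (2.65%). On the log2 scale, Prkg2 rose in both regions, by 3.17 in the bridge and 3.03 in the distal stump. Crym rose by 1.99 in the bridge and 0.84 in the distal stump, and Corin by 2.20 in the bridge and 3.24 in the distal stump. Inmt fell in both, with -2.55 in the bridge and -1.40 in the distal stump. Crym, Corin and Inmt were each among the genes with an unadjusted interaction p under 0.05.

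The mitotic list had a median of 0.84 in the bridge and 0.29 in the distal stump, and 5 of its 30 genes rose in the distal stump. The distal stump counts given here stand beside the 8.14% of all genes called there in either direction. Of the 30, 29 had an unadjusted interaction p under 0.05, against 13.2% of all genes, with 11 called by DESeq2. For DNA replication the medians were 0.54 in the bridge and 0.20 in the distal stump, with 19 of 33 at an unadjusted p under 0.05. RAS-ERK feedback genes had similar medians, 0.30 in the bridge and 0.32 in the distal stump, where 8 of 20 rose. Myelin genes had -0.85 in the bridge and -0.60 in the distal stump. Endothelial genes had a median of -0.0060 in the bridge and -0.43 in the distal stump, where 8 of 18 fell, and 7 of 18 had an unadjusted interaction p under 0.05. No member of any list was called in the interaction by edgeR, so these regional differences did not pass its adjusted test. That test treats bridge and distal stump libraries as independent, and whether they share mice is not given.

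**Figure D5:**
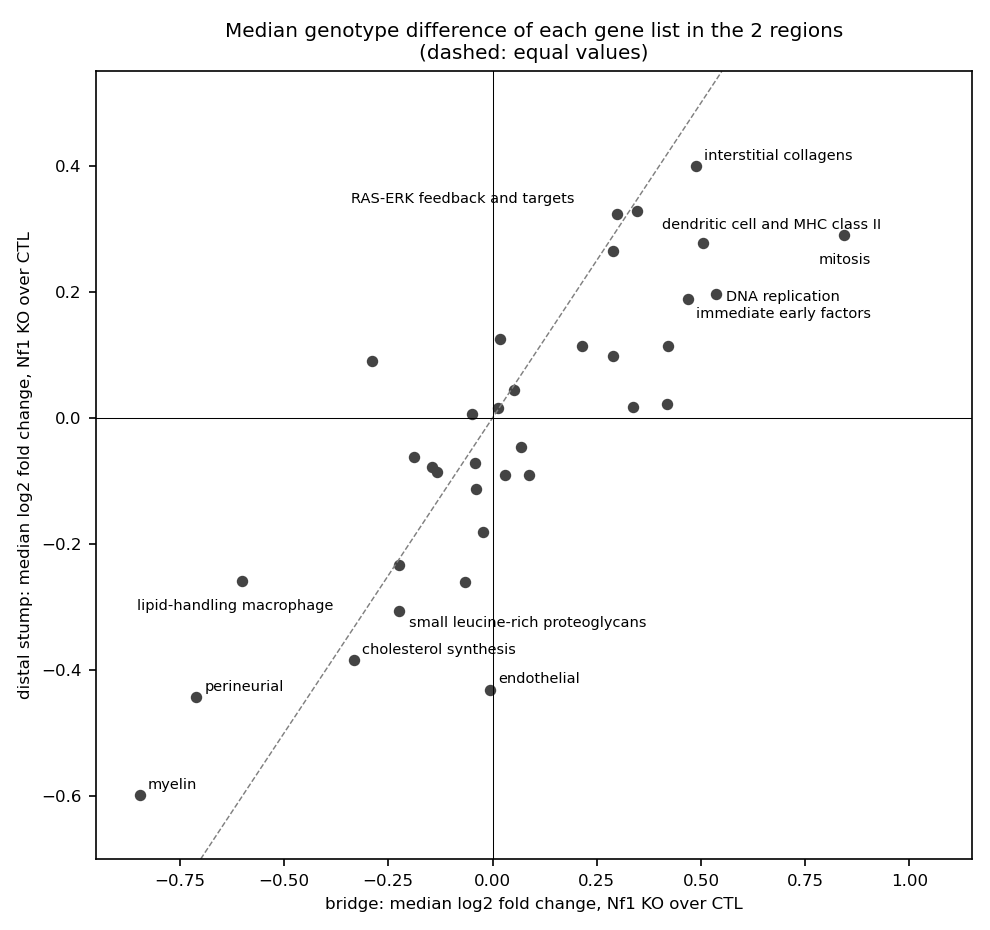
Median log2 fold change of Nf1 KO over CTL for each gene list in the bridge (horizontal axis) and the distal stump (vertical axis), with equal values on the dashed line. The mitosis list lies far below the line, with 0.84 in the bridge and 0.29 in the distal stump, and the endothelial list is near 0 in the bridge and -0.43 in the distal stump.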

How the data were processed

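Total RNA of nerve fragments was depleted of ribosomal RNA and sequenced, per the labels' protocols. CASAVA 1.8.2, cutadapt 1.2.1, the build mm10 and DESeq2 appear in the submitters' processing notes. For the aligner and counter, the name is not given in the sources used here. Values deposited by the authors were taken as estimated counts per gene, whole numbers not scaled to library size, and were used without rounding. For very short genes they are not plain counts: 0% of their values above 0 are under 10 for genes up to 120 bases, against 25.8% for genes of 500 to 1000 bases. Levels of short genes and histones carry that caution. Coordinates of genes come from GENCODE M21 (GRCm38), which holds 30202 of the 30452 IDs. Of the tested genes, 131 have the same counts as another gene. Totals of the bridge libraries were 18821445 to 35871914, and the floor of 3 counts covers counting error only.

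Groups were taken from the labels. With edgeR 4.0.16 in R 4.3.3, the 19189 genes kept by filterByExpr were fitted with TMM factors and quasi-likelihood dispersion in all 12 libraries with 1 coefficient per group. The bridge contrast, the distal contrast and their interaction were tested with Benjamini-Hochberg adjustment at 0.05. Standard errors were obtained as absolute log2 fold change over root F. The procedure was run on simulated independent counts. These held no differences in tissue makeup and no mice shared between pools, so the run is no check on either. Alternatives were RLE size factors, no filter, the replicate number as a block, a Y-linked covariate, the bridge libraries alone, DESeq2 1.42.0, glmTreat at a log2 of 0.5, each replicate left out, and CTL bridge 1 and 3 left out.

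The members and the 49 gene lists were chosen with earlier results of these data known. Genes were named by a rule: Nf1, the 12 largest rises and falls and the 8 largest gains and losses in CPM among called genes, and up to 4 called members of each list with the smallest p. The first of these groups also had to keep its call in all alternatives other than glmTreat and the fit without CTL bridge 1 and 3, to reach a mean log2 CPM of 1 and to show no overlap. No gene met the part of the rule on the interaction, which needed a call there. Chosen after their values were seen were Adamts5, Adgre1, Col4a4, Col4a5, Csf1r, Drp2, Dusp5, Egr1, Ephb2, Erbb3, Fabp4, Fn1, Foxm1, Hbegf, Ier3, Inhba, Kif2c, Krt19, Mcm2, Mdk, Mki67, Nefl, Nppc, Nr1h3, Ocln, Pcna, Pdgfra, Pecam1, S100b, Slc2a1, Slit2, Sox10, Tgfa, Tgfb1, Tgfbr3, Timp1 and Tjp1. A few genes that met the rule, or were chosen later, are not reported here.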

Additional observations from a re-analysis of the deposited data

How the results depend on the processing

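No gene called in the bridge changed direction under any alternative run. The count of 2795 was 2789 with RLE size factors, 2386 with no filter, 2196 with a Y-linked covariate, 2278 with the bridge libraries alone, 3425 with DESeq2 and 166 with glmTreat, which tests for changes beyond a log2 of 0.5. The Y-linked genes summed to 147, 41.21 and 123.4 CPM in Nf1 KO and 216, 102 and 195.2 CPM in CTL, and the sex of the pooled mice is not given. With 1 replicate left out the count ranged from 1612 to 2234, and without CTL bridge 1 and 3, where the lone CTL library is assumed to vary like the other groups, it was 711. Genes changed at least 2-fold ranged from 272 to 395 with 1 replicate left out, against 418, and numbered 235 without CTL bridge 1 and 3. The interaction called 418 genes with DESeq2 and 0 in every other fit.

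The log2 fold change of Nf1 was -0.3993 with the bridge libraries alone (adjusted p = 0.0506), -0.4037 under glmTreat (adjusted p = 1), -0.5103 to -0.3242 with 1 replicate left out and -0.4906 without CTL bridge 1 and 3 (adjusted p = 0.106). In that last fit 2 of the genes chosen by the naming rule changed sign, both uncalled: Krt10 (-0.08629) and Eif2s3y (0.04894).

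Groups share replicate numbers, but the deviations of same-numbered Nf1 KO and CTL bridge libraries correlated by 0.0524, 0.0811 and -0.0036. The numbers were therefore not taken as pairing Nf1 KO with CTL libraries. Whether same-numbered bridge and distal stump libraries of the same genotype share mice was not checked, and the main fit treats them as independent. With the replicate block 2464 genes were called, 2316 of them among the 2795, and the Nf1 change was -0.4049 (adjusted p = 0.0419).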

Other observations

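Lists of cells that the comparison did not turn on had few calls. Of 16 T and NK cell genes 1 was called, Gzmb, with a log2 fold change of -1.80 and an adjusted p of 0.0453 in edgeR's quasi-likelihood test that was lost when any library other than CTL bridge 2 was left out. The 8 B and plasma cell genes, 9 mast cell genes, 3 keratinocyte genes and 13 genes of the mitochondrial genome had 0 calls. Nefh, a neurofilament, was the 1 called gene among 10 of neurons (-1.64, adjusted p = 0.0333), and its call was lost with any library left out. Summed mitochondrial genes reached 22119, 23102 and 21920 CPM in Nf1 KO and 33440, 21228 and 27181 CPM in CTL, highest in the muscle-rich CTL bridge 1 and 3. S100a8, a neutrophil gene, had 592 CPM in Nf1 KO bridge 1 and 17.0 and 15.9 CPM in Nf1 KO bridge 2 and 3, against 10.0, 22.9 and 11.0 CPM in CTL.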
